A study of Mus musculus with 8 samples.

Results

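Phase I and phase II detoxification enzymes were followed in murine colon organoids treated with fecal supernatant (FS). Members were taken by gene symbol: cytochrome P450 families 1 to 4 (*Cyp*), carboxylesterases (*Ces*), carbonyl reductases (*Cbr*), epoxide hydrolases (*Ephx*), UDP-glucuronosyltransferases (*Ugt*), cytosolic and kappa glutathione transferases (*Gst*), microsomal glutathione transferases (*Mgst*) and sulfotransferases (*Sult*), without pseudogenes and without *Cyp1a1*, *Cyp1b1* and *Cyp3a13*. They numbered 163 of the 29234 genes in the table. Organoids were grown from colon crypts of WT mice, and all 8 samples received FS at 4 mg/mL, with a labelled time of 5 days. In the FS_DSS group the supernatant came from mice with colitis and dysbiosis after dextran sodium sulfate (DSS), and in the FS_CTR group it came from healthy mice, with 4 samples in each. The supernatants were made from pooled fecal pellets, so each group stands for pooled material, and nothing in the labels ties the 4 samples of a group to separate cultures or animals. What the *p* values measure is thus the spread among these 8 samples, and it may be technical.

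These enzymes handle foreign compounds, bile acids, hormones and reactive lipids. In phase I, P450 enzymes oxidize a molecule, carboxylesterases cut esters, carbonyl reductases reduce ketones and quinones, and epoxide hydrolases add water to reactive epoxides. In phase II, transferases join the product to glutathione, glucuronic acid or sulfate, and efflux pumps then carry the conjugate out of the cell. The colon epithelium meets diet-derived and microbial compounds from the lumen, and its absorptive cells carry much of this enzyme set.

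Total counts ran from 26363942 to 27035243 per FS_DSS library and from 18968416 to 26707846 per FS_CTR library. FS_CTR replicates 3 and 4 stood apart: mitochondrially encoded genes held 38.7% and 33.3% of their counts, against 2.83% to 6.98% in the other 6 libraries. Results that rest on these libraries are therefore given with and without them. The detoxification genes together held 0.604%, 0.642%, 0.603% and 0.511% of the counts outside mitochondrially encoded genes in FS_DSS replicates 1 to 4, against 0.613%, 0.710%, 0.632% and 0.669% in FS_CTR replicates 1 to 4.

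Of the 163 members, 79 passed the filter on low counts. The other 84 comprised 36 with no count in any library and 48 with counts, of which *Cyp3a25* had the highest total, 73 counts over the 8 libraries. Those at 0 throughout included *Cyp1a2*, *Cyp2e1*, *Cyp4a14* and all 7 *Sult2a* genes. At the other end, *Gstp1* (pi class) had the highest level per transcript length, 387 CPM (counts scaled to library size) per kilobase in organoids treated with FS_DSS and 494 in those treated with FS_CTR. *Gsto1* (omega class) followed at 383 and 378, *Gsta1* (alpha class) at 306 and 360, the colon P450 gene *Cyp2c55* at 213 and 270, and *Mgst3* at 165 and 207 CPM per kilobase. In bulk RNA, fewer cells of a type and less RNA per cell cannot be told apart.

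Transcripts of the detoxification enzymes were lower with FS_DSS in most measured members, and the glutathione transferases carried the largest number of low values. Of the 79 members, 64 (81.0%) had a negative Log2(FC), FS_DSS over FS_CTR, against 52.5% of all 12729 genes tested, and the median was -0.35 against -0.02. At the study's thresholds, an unadjusted *p* under 0.05 and a Log2(FC) of at least 0.58 in size, 16 members (20.3%) were lower against 6.44% of all genes, and 1 member, *Cyp2b10* (1.27%), was higher against 2.56%. No member passed an adjusted *p* of 0.05 by edgeR, nor did any gene (0%), whereas at an unadjusted *p* under 0.05 alone 23 members (29.1%) were lower and 2 (2.53%) were higher, against 13.4% and 10.6% of all genes. DESeq2, at an adjusted *p* under 0.05, found 10 of 78 members lower against 6.35% of all genes and *Cyp2b10* higher against 5.14%. With the replicate number as a block, *Gstt2* and *Sult1c2* passed an adjusted *p* of 0.05 as lower, against 1.52% of all genes.

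The count of 16 depended on single libraries. It was 7 of 80 members without FS_DSS replicate 4 (4.57% of all genes) and 10 of 79 without FS_CTR replicate 2 (7.08%). FS_DSS replicate 4 was the lowest of the 8 libraries in 37 of the 79 members (46.8%), against 18.4% of all genes tested. Without FS_CTR replicates 3 and 4 the count was 18 of 81 members (5.34% of all genes), and 13 of the 16 stayed lower at both thresholds. With scaling by library totals alone, the median of all genes moved to 0.31, that of the members to -0.02, and 0 members were lower and 3 (3.80%) higher, against 148 (1.16%) and 1273 of all 12729 genes.

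Members had short transcripts, with a median of 1968 bases against 3413 over the 12376 tested genes with a known length, and short genes were lower in general. Among the 3100 genes of up to 2159 bases the median Log2(FC) was -0.24 and 14.2% were lower at both thresholds, whereas the 46 members of that length had a median of -0.37 and 11 were lower. Among the 3089 genes from there up to 3413 bases the median was -0.06 and 5.24% were lower, and the 24 members had a median of -0.42 with 4 lower. The part of transcript length in the members' values was not tested.

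**Figure D1:**
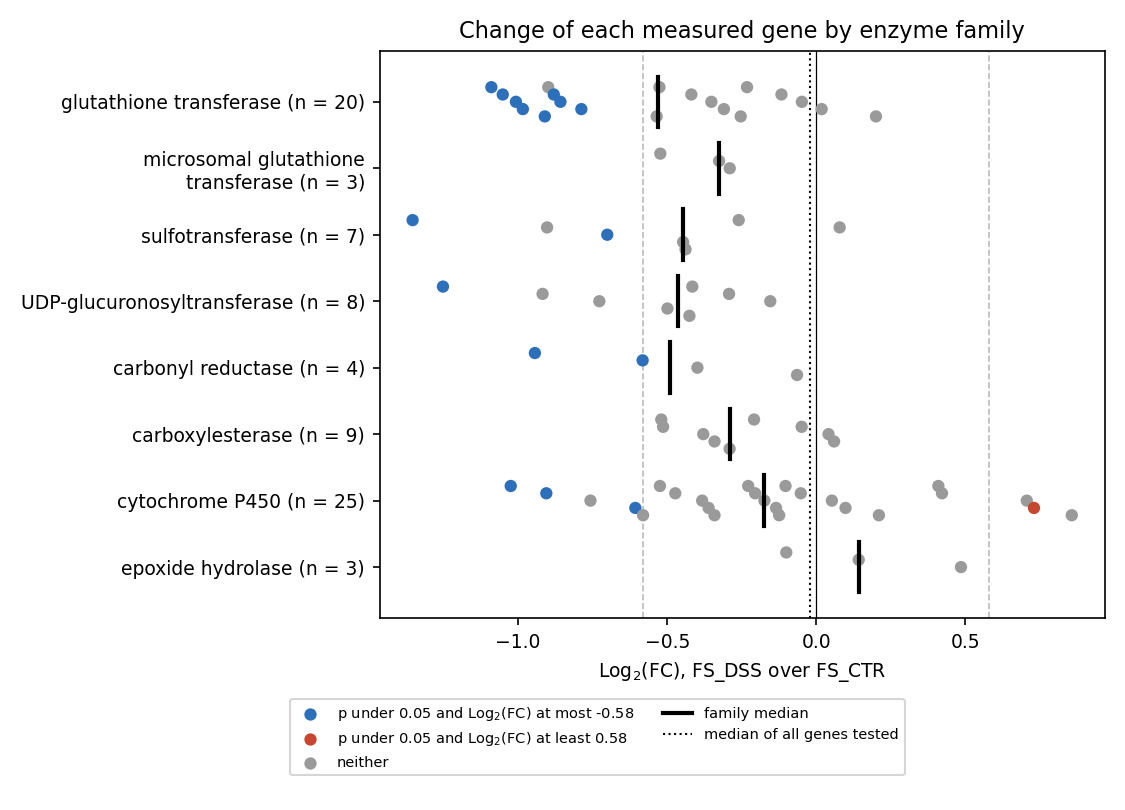
Log2(FC), FS_DSS over FS_CTR, of the 79 measured genes (points) in 8 enzyme families, with the family median (black bar), the median of all genes tested (dotted line) and the 0.58 thresholds (dashed lines). The glutathione transferases hold 8 of the 16 genes that were lower at both thresholds, and the 3 epoxide hydrolases have a median of 0.14.

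The families differed in how far their members lay below zero. Among the 38 phase II genes, 35 were negative (median -0.47) and 11 were lower at both thresholds. Among the 41 phase I genes, 29 were negative (median -0.20), 5 were lower and 1 was higher. Over all genes tested, 52.5% were negative, 6.44% were lower and 2.56% were higher at both thresholds. The family medians ran from -0.53 for 20 glutathione transferases, through -0.49 for 4 carbonyl reductases, -0.46 for 8 UDP-glucuronosyltransferases, -0.45 for 7 sulfotransferases, -0.33 for 3 microsomal glutathione transferases, -0.29 for 9 carboxylesterases and -0.17 for 25 P450 genes, to 0.14 for 3 epoxide hydrolases. Without FS_CTR replicates 3 and 4 the median was -0.22 over the 81 members that then passed, and the order of the families changed. UDP-glucuronosyltransferases were then lowest (-0.52), with glutathione transferases, carboxylesterases and carbonyl reductases level at -0.42. Microsomal glutathione transferases were at -0.29, sulfotransferases at -0.06, P450 genes at -0.03 and epoxide hydrolases at 0.48. These are descriptions of families of unequal size, and the differences between them were not tested.

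Summed levels gave a different order, because a few genes of high CPM dominate each sum. Carbonyl reductase transcripts summed to 71.2% of the FS_CTR mean in organoids treated with FS_DSS, sulfotransferases to 75.6%, microsomal glutathione transferases to 76.8%, UDP-glucuronosyltransferases to 81.4%, P450 genes to 83.7%, glutathione transferases to 87.4%, carboxylesterases to 87.6% and epoxide hydrolases to 98.4%. Carbonyl reductases summed to 94.1, 115, 123 and 95.3 CPM with FS_DSS, against 124, 155, 168 and 153 CPM with FS_CTR, and microsomal glutathione transferases to 384, 423, 369 and 315 CPM, against 420, 495, 519 and 508 CPM. In the carbonyl reductases the groups did not overlap, though FS_DSS replicate 3 (122.6 CPM) lay just below FS_CTR replicate 1 (123.8 CPM). In the microsomal family FS_DSS replicate 2 lay just above FS_CTR replicate 1. P450 genes summed to 1497, 1505, 1018 and 869 CPM with FS_DSS, against 1265, 1493, 1498 and 1585 CPM with FS_CTR, so FS_DSS replicates 1 and 2 lay within the FS_CTR range and replicates 3 and 4 below it.

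**Figure D2:**
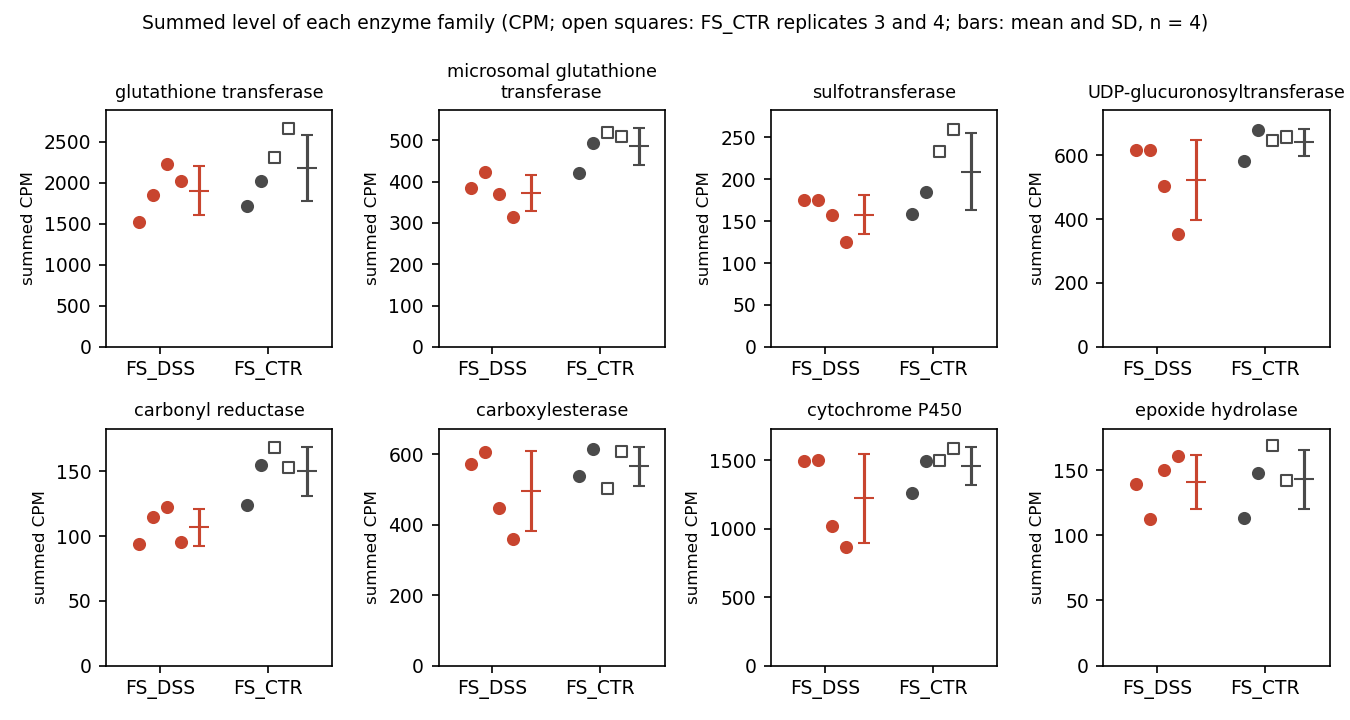
Summed CPM of each enzyme family in each library, FS_DSS (red) and FS_CTR (grey), with mean and SD (n = 4) beside the points and FS_CTR replicates 3 and 4 as open squares. The carbonyl reductase sums only just avoid overlap between the groups. In the P450, carboxylesterase and UDP-glucuronosyltransferase families the low FS_DSS values come from replicates 3 and 4.

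The 250 bases before the start of the canonical transcript are shown for 4 of the genes: the theta class genes *Gstt1* and *Gstt3*, which lie close together on chromosome 10 and whose groups did not overlap, *Gstm2*, with the lowest Log2(FC) of the glutathione transferases, and *Cyp2b10*, the gene that was higher. They were read from GRCm39, 5′ to 3′ on the strand of each gene: *Gstt1* at chr10:75634446-75634695 (minus), *Gstt3* at chr10:75617249-75617498 (minus), *Gstm2* at chr3:107893786-107894035 (minus) and *Cyp2b10* at chr7:25596795-25597044 (plus). All 4 windows lie upstream of the annotated gene, apart from the last 8 bases for *Gstt3*, where another transcript starts earlier and exons of a long noncoding RNA gene, *Gm66470*, lie on the opposite strand. The groups did not overlap in the theta gene *Gstt2* either, but its window (chr10:75671208-75671457) lies within the annotated gene and is not shown. Capitals mark a match to one of the motifs searched.
Gstt1: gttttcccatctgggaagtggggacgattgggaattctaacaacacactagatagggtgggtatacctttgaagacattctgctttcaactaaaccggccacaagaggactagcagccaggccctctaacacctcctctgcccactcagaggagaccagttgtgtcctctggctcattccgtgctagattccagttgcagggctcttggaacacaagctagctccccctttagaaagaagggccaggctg
Gstt3: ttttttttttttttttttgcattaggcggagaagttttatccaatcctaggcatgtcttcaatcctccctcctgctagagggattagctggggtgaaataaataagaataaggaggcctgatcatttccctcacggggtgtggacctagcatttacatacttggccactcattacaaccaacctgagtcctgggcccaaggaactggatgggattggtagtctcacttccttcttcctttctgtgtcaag
Gstm2: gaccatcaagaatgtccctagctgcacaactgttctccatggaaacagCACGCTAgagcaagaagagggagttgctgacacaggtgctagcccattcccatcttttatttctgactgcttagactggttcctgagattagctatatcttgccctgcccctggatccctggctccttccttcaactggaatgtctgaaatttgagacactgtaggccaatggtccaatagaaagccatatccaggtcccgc
Cyp2b10: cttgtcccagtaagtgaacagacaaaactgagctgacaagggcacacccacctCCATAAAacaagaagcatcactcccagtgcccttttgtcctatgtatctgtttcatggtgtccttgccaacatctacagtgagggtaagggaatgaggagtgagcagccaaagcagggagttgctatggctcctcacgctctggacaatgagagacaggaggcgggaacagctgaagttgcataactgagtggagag

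The motifs were searched on both strands. A core of the antioxidant response element (TGACNNNGC), to which Nrf2 binds, was in the windows of 4 of the 79 members (5.06%) and of 10.1% of 19090 protein-coding genes. A core of the xenobiotic response element (TNGCGTG), to which the aryl hydrocarbon receptor binds, was in 5 members (6.33%) and 5.12% of all, and the match in *Gstm2*, on the opposite strand, begins at position -202 from the start. The nuclear receptor motifs AGGTCA and AGTTCA were in 16.5% and 15.2% of the members, against 13.0% and 11.3% of all, and a CDX site (TTTATNG) was in 7.59%, against 9.06%, among them *Cyp2b10*, on the opposite strand, where it begins at position -197. The HNF1 motif GTTAAT was in 8.86% of members, against 5.45% of all. The *Gstt1* and *Gstt3* windows held none of these letters and shared 46.1% of aligned bases, against 43.7% for *Gstt3* with *Gstm2* and 46.3% for *Gstt1* with *Gstm2*.

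Glutathione transferases join glutathione to electrophiles, and the class of each gene shows in its sequence and its preferred substrates. In this family 18 of 20 genes had a negative value, 8 (40.0%) were lower at both thresholds and 12 of 20 passed an unadjusted *p* of 0.05, all lower, against 13.4% of all genes. Of the other 59 members, 8 (13.6%) were lower at both thresholds, against 6.44% of all genes. The classes were unlike: theta and mu genes were lowest, pi and alpha genes less so, and the 2 omega genes were slightly positive.

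Theta class enzymes conjugate small halogenated and other electrophilic compounds. *Gstt1* (ENSMUSG00000001663, chr10:75618994-75634445) had 1.71, 2.17, 1.72 and 1.45 CPM in organoids treated with FS_DSS, against 3.77, 4.37, 3.05 and 3.38 CPM in those treated with FS_CTR. Every FS_DSS sample was below every FS_CTR sample, and Log2(FC) was -1.05 ± 0.22 (SE, adjusted *p* = 0.080, edgeR). *Gstt2* (ENSMUSG00000033318, chr10:75666948-75673258) had 10.5, 11.0, 14.5 and 9.72 CPM with FS_DSS, against 18.1, 18.1, 33.3 and 21.1 CPM with FS_CTR (Log2(FC) -0.98 ± 0.22, adjusted *p* = 0.08, and adjusted *p* = 0.038 with the replicate block). The groups were again separate, with FS_CTR replicate 3 the highest. *Gstt3* (ENSMUSG00000001665, chr10:75609940-75617256), the highest of these in CPM, had 42.0, 38.8, 44.3 and 34.5 CPM with FS_DSS, against 54.2, 55.6, 53.4 and 50.2 CPM with FS_CTR, a Log2(FC) of -0.42 ± 0.10 (adjusted *p* = 0.08) that missed the fold threshold. Without FS_CTR replicates 3 and 4 the Log2(FC) of *Gstt1* was -1.21, that of *Gstt2* -0.66 and that of *Gstt3* -0.46. The groups did not overlap in 5 members (6.33%) that were lower with FS_DSS, these 3 with *Gstz1* and *Cbr1*, against 7.58% of all genes, and in 2 members that were higher, *Cyp2b10* and *Cyp4x1* (2.53%), against 7.41%.

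*Gstz1* (ENSMUSG00000021033, chr12:87193898-87225026), of the zeta class, is the maleylacetoacetate isomerase of tyrosine breakdown. It had 15.6, 13.9, 17.2 and 14.8 CPM with FS_DSS, against 21.2, 23.4, 23.5 and 20.6 CPM with FS_CTR, with little spread in either group. Its Log2(FC) was -0.53 ± 0.11 (adjusted *p* = 0.080), the smallest unadjusted value among the members although short of the fold threshold, and it was -0.53 without FS_CTR replicates 3 and 4.

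Mu class enzymes detoxify epoxides and other aromatic electrophiles, and their 7 genes lie in a cluster on chromosome 3. All 7 were negative (median -0.86) and 5 were lower at both thresholds, against 6.44% of all genes. *Gstm1* (ENSMUSG00000058135, chr3:107919380-107925380), the highest of them in CPM, had 40.1, 48.9, 71.9 and 40.0 CPM with FS_DSS, against 129, 130, 63.9 and 46.0 CPM with FS_CTR (Log2(FC) -0.88 ± 0.35, adjusted *p* = 0.173). The FS_CTR group was split: replicates 1 and 2 were high, and replicates 3 and 4 lay within the FS_DSS range. *Gstm2* (ENSMUSG00000040562, chr3:107889004-107893785) had 8.11, 7.98, 11.1 and 7.33 CPM with FS_DSS, against 24.4, 20.8, 17.1 and 10.9 CPM with FS_CTR, and only FS_DSS replicate 3 reached the lowest FS_CTR value (Log2(FC) -1.09 ± 0.25, adjusted *p* = 0.08). In *Gstm3* (-0.79), *Gstm6* (-0.86) and *Gstm7* (-1.01), FS_CTR replicate 4 was likewise the lowest of its group. Without FS_CTR replicates 3 and 4 these 5 genes had values from -1.39 to -1.08. *Gstm4* (-0.25) and *Gstm5* (-0.54) did not pass both thresholds and were highest in FS_CTR replicates 3 and 4. Since near-identical mu genes can trade reads in the counting, their counts were also summed, which gave 66.3, 81.3, 115 and 70.6 CPM with FS_DSS, against 190, 189, 118 and 90.2 CPM with FS_CTR, a Log2(FC) of -0.82.

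**Figure D3:**
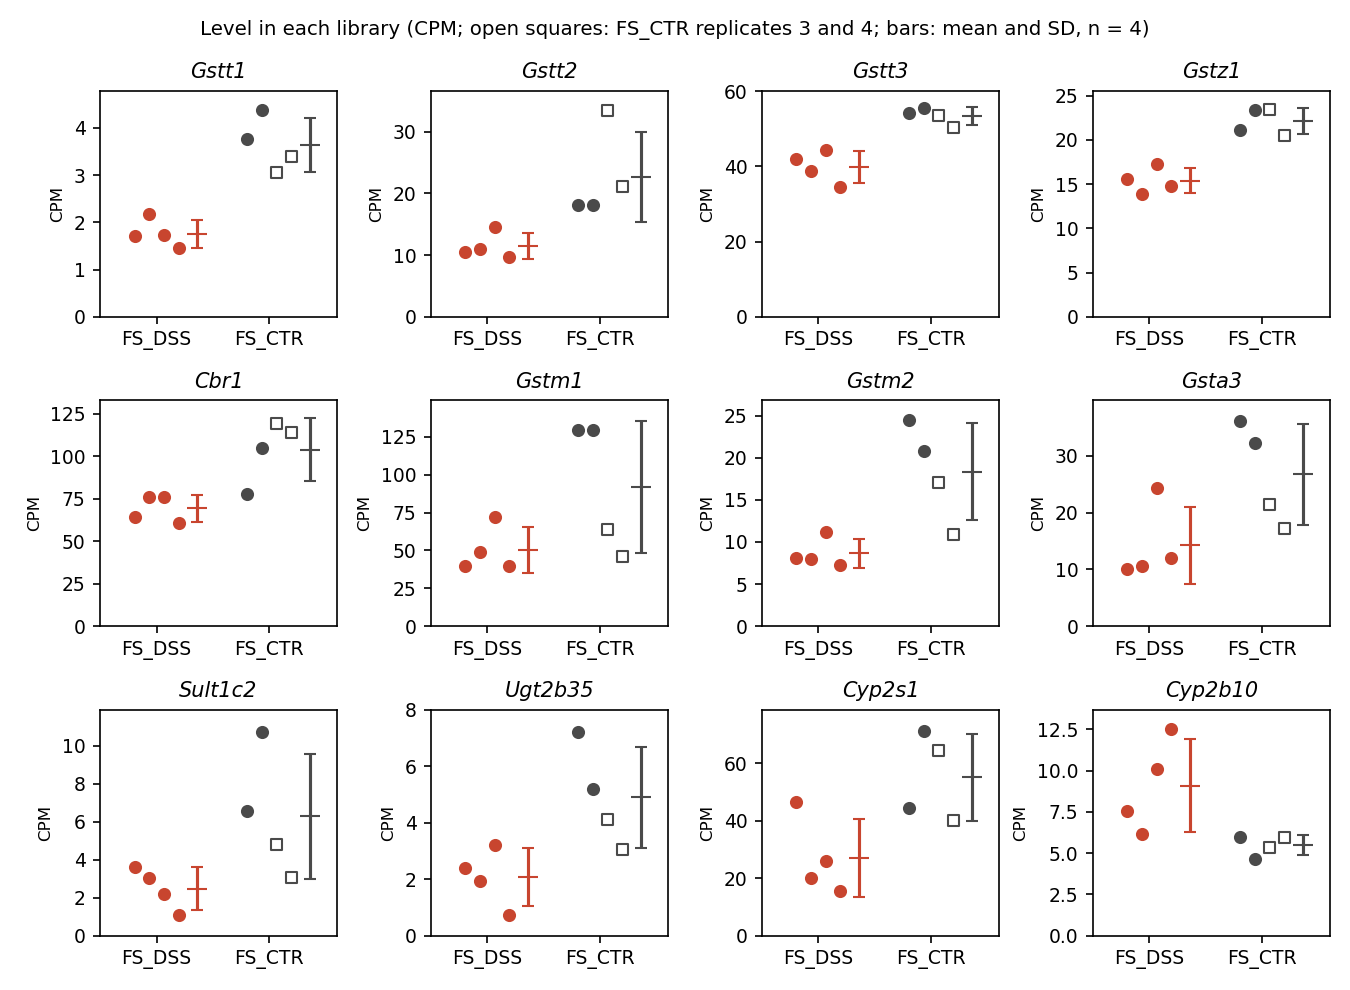
CPM of 12 enzyme genes in each library, FS_DSS (red, left) and FS_CTR (grey, right), with mean and SD (n = 4) beside the points and FS_CTR replicates 3 and 4 as open squares. *Gstt1*, *Gstt2*, *Gstt3*, *Gstz1*, *Cbr1* and *Cyp2b10* separate the groups completely, while in *Gstm1* and *Gsta3* the open squares fall among the FS_DSS values.

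Alpha class enzymes act on lipid peroxidation products and on steroids. *Gsta3*, which in mice conjugates the aflatoxin epoxide, had 10.1, 10.6, 24.4 and 12.0 CPM with FS_DSS, against 36.1, 32.3, 21.4 and 17.2 CPM with FS_CTR (Log2(FC) -0.91 ± 0.34, adjusted *p* = 0.154). It split FS_CTR as the mu genes did, and FS_DSS replicate 3 was above FS_CTR replicates 3 and 4. *Gsta1* moved the other way across replicates, with 220, 240, 341 and 284 CPM with FS_DSS, against 163, 233, 390 and 490 CPM with FS_CTR, a Log2(FC) of -0.23 ± 0.32 that was 0.46 without FS_CTR replicates 3 and 4. *Gsta4*, whose enzyme clears 4-hydroxynonenal, was similar, at 226, 236, 401 and 323 CPM, against 223, 243, 356 and 404 CPM (Log2(FC) -0.05 ± 0.24). The 2 pi genes, *Gstp1* (-0.35) and *Gstp2* (-0.31), which share most of their sequence, summed to 325, 461, 469 and 443 CPM with FS_DSS, against 426, 559, 572 and 598 CPM with FS_CTR, a Log2(FC) of -0.34. *Gsto1*, an omega enzyme that also reduces dehydroascorbate, had 594, 738, 785 and 802 CPM with FS_DSS, against 571, 649, 717 and 946 CPM with FS_CTR, and neither it (0.02 ± 0.17) nor *Gsto2* (0.20 ± 0.38) differed beyond the spread between samples.

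Microsomal glutathione transferases sit in membranes, and *Mgst2* can also make leukotriene C4. *Mgst3* (-0.33 ± 0.12, adjusted *p* = 0.148) and *Mgst2* (-0.52 ± 0.21, adjusted *p* = 0.175) passed the unadjusted threshold without reaching that of the fold. *Mgst2* had 130, 107, 102 and 82.9 CPM with FS_DSS, against 109, 124, 191 and 183 CPM with FS_CTR, so its value rested on FS_CTR replicates 3 and 4 and was -0.14 without them. *Mgst1* had 23.8, 34.6, 43.7 and 32.4 CPM with FS_DSS, against 47.8, 64.0, 29.1 and 22.8 CPM with FS_CTR, the reverse split, and its Log2(FC) of -0.29 was -0.73 without them.

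UDP-glucuronosyltransferases make bilirubin, steroids and phenols water-soluble. All 8 measured genes had a negative value, and 1, *Ugt2b35*, was lower at both thresholds, against 6.44% of all genes. *Ugt2b35* (ENSMUSG00000035811, chr5:87148701-87161742) had 2.38, 1.94, 3.21 and 0.742 CPM with FS_DSS, against 7.23, 5.19, 4.12 and 3.06 CPM with FS_CTR (Log2(FC) -1.25 ± 0.43, adjusted *p* = 0.137), and only FS_DSS replicate 3 reached above the lowest FS_CTR sample. Genes of higher CPM had values nearer to 0: *Ugt1a7c* had a Log2(FC) of -0.15, *Ugt2b34* of -0.29 and *Ugt1a1*, the bilirubin enzyme, of -0.42, with none under an unadjusted *p* of 0.05. *Ugt2b34* had 208, 198, 157 and 125 CPM with FS_DSS, against 205, 208, 214 and 216 CPM with FS_CTR, a narrow FS_CTR range below which FS_DSS replicates 2, 3 and 4 lay. The *Ugt1a* genes share their last exons on chromosome 1, so reads there cannot be assigned to one gene with certainty. Their sum was 400, 409, 341 and 224 CPM with FS_DSS, against 363, 456, 424 and 434 CPM with FS_CTR, a Log2(FC) of -0.29.

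Sulfotransferases transfer sulfate to phenols, steroids and catecholamines. *Sult1c2* (ENSMUSG00000023122, chr17:54136151-54153418) had the lowest Log2(FC) of all members, -1.35 ± 0.46 (adjusted *p* = 0.133, and adjusted *p* = 0.049 with the replicate block). It had 3.62, 3.05, 2.18 and 1.07 CPM with FS_DSS, against 6.56, 10.7, 4.77 and 3.06 CPM with FS_CTR, and in each replicate number the FS_DSS sample was the lower one. *Sult2b1*, which sulfates cholesterol, had 12.9, 18.5, 15.5 and 14.2 CPM with FS_DSS, against 15.5, 16.3, 31.8 and 36.2 CPM with FS_CTR, and its Log2(FC) of -0.70 (adjusted *p* = 0.182) was -0.06 without FS_CTR replicates 3 and 4. *Sult1b1* (-0.45) and *Sult1d1* (-0.26), the 2 highest in CPM, were likewise highest in those libraries, with -0.12 and -0.04 without them, and *Sult4a1* (0.08) varied with replicate number in both groups.

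Carbonyl reductases use NADPH to reduce quinones, prostaglandins and other carbonyl compounds. *Cbr1* (ENSMUSG00000051483, chr16:93402741-93407393) had 64.5, 76.2, 76.1 and 60.4 CPM with FS_DSS, against 77.7, 105, 119 and 114 CPM with FS_CTR (Log2(FC) -0.58 ± 0.15, adjusted *p* = 0.089). The groups did not overlap, though FS_CTR replicate 1 lay just above the highest FS_DSS sample, and without FS_CTR replicates 3 and 4 the value was -0.40, under the fold threshold. *Cbr2* had 1.24, 1.94, 2.53 and 1.74 CPM with FS_DSS, against 4.66, 3.91, 3.29 and 2.41 CPM with FS_CTR (Log2(FC) -0.94 ± 0.29, adjusted *p* = 0.112). *Cbr3* had a Log2(FC) of -0.40 ± 0.23, and *Cbr4*, a mitochondrial enzyme, of -0.06 ± 0.10, with all 8 samples between 15.0 and 17.8 CPM.

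Among P450 genes 17 of 25 had a negative value, 3 were lower and 1 was higher at both thresholds. Of all genes tested, 52.5% were negative, 6.44% lower and 2.56% higher. *Cyp2b10* (ENSMUSG00000030483, chr7:25597045-25626049), the standard target gene of the constitutive androstane receptor in mouse liver, had 7.54, 6.17, 10.1 and 12.5 CPM with FS_DSS, against 5.96, 4.66, 5.35 and 5.92 CPM with FS_CTR. All FS_DSS samples were above all FS_CTR samples, replicate 2 only just, and Log2(FC) was 0.73 ± 0.23 (adjusted *p* = 0.117). Without FS_CTR replicates 3 and 4 the value was 0.77, and without any single library it ran from 0.54 to 0.88, lowest without FS_DSS replicate 4. *Cyp4v3*, a fatty acid hydroxylase gene, was the other member that was higher without regard to the fold threshold (0.41 ± 0.16, adjusted *p* = 0.164), and *Cyp2d22* had a Log2(FC) of 0.71 ± 0.47 at about 1 CPM.

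*Cyp2s1*, a P450 of epithelia outside the liver, had 46.5, 20.2, 26.0 and 15.7 CPM with FS_DSS, against 44.4, 71.3, 64.5 and 40.2 CPM with FS_CTR (Log2(FC) -1.02 ± 0.34, adjusted *p* = 0.127). FS_DSS replicate 1 lay inside the FS_CTR range and the other 3 below it. *Cyp2d26* had 41.2, 37.5, 20.8 and 11.6 CPM with FS_DSS, against 58.7, 70.4, 37.9 and 40.4 CPM with FS_CTR (-0.91 ± 0.38, adjusted *p* = 0.19), again with FS_DSS replicate 4 the lowest. *Cyp2d34* had 73.3, 71.1, 50.9 and 53.5 CPM with FS_DSS, against 61.8, 67.7, 111 and 140 CPM with FS_CTR, and its value of -0.61 (adjusted *p* = 0.204) was -0.06 without FS_CTR replicates 3 and 4. The counts of *Cyp2d* genes, which are close in sequence, summed to a Log2(FC) of -0.63. The P450 gene with the highest CPM, *Cyp2c55*, had 547, 534, 342 and 283 CPM with FS_DSS, against 436, 544, 613 and 569 CPM with FS_CTR (-0.34 ± 0.22). *Cyp4f14*, whose enzyme inactivates leukotriene B4, had the same FS_DSS pattern, 188, 213, 105 and 89.2 CPM, against 167, 197, 143 and 146 CPM with FS_CTR, and *Cyp2j6* (0.05) did not differ beyond the spread.

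No carboxylesterase or epoxide hydrolase passed both thresholds. *Ces2c*, the carboxylesterase with the highest CPM, had 338, 387, 290 and 265 CPM with FS_DSS, against 290, 319, 313 and 402 CPM with FS_CTR (-0.05 ± 0.15). *Ces2e* had 144, 142, 89.7 and 53.3 CPM with FS_DSS, against 160, 205, 117 and 132 CPM with FS_CTR (-0.52 ± 0.31), and *Ces2a* (-0.38), like it, was lowest in FS_DSS replicates 3 and 4. *Ces1e* (-0.34), *Ces1g* (0.04) and *Ces2b* (0.06) overlapped between the groups. Of the epoxide hydrolases, *Ephx1*, the microsomal enzyme, had a Log2(FC) of -0.10 ± 0.17 and *Ephx4* of 0.49 ± 0.27. *Ephx2*, the soluble enzyme that hydrolyzes epoxides of arachidonic acid, had 46.2, 43.0, 47.1 and 45.8 CPM with FS_DSS, against 26.1, 27.6, 57.4 and 54.8 CPM with FS_CTR, so the 4 FS_DSS samples lay between a low and a high pair of FS_CTR samples. Its Log2(FC) was 0.14 ± 0.26 with all libraries and 0.76 without FS_CTR replicates 3 and 4 (adjusted *p* = 0.0739), where it was higher at both thresholds.

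**Figure D4:**
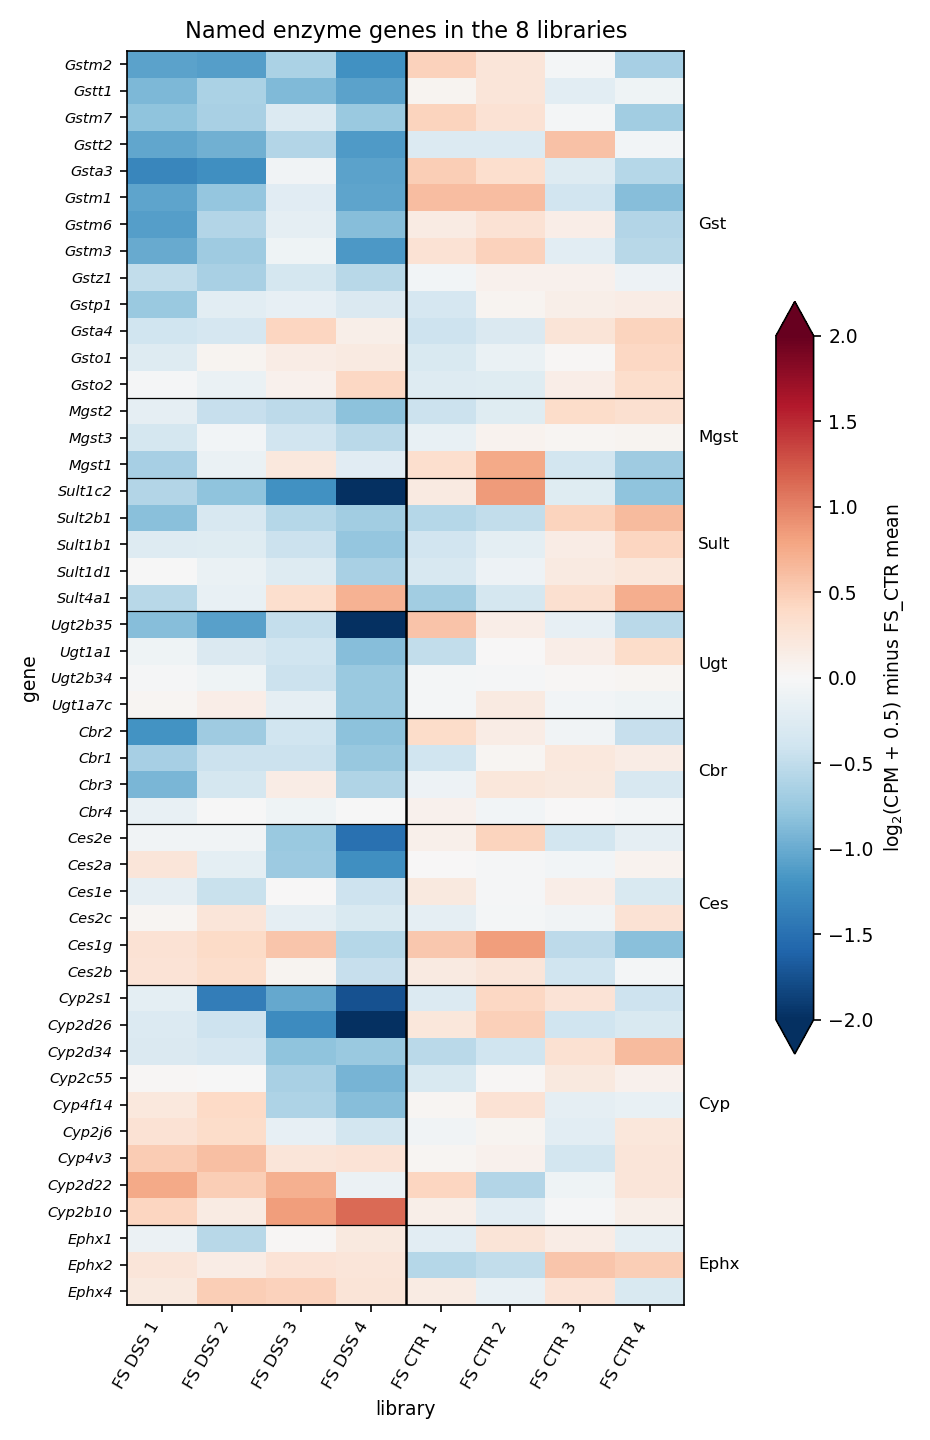
log2(CPM + 0.5) minus the FS_CTR mean for 47 named enzyme genes (rows, by family) in the 4 FS_DSS and 4 FS_CTR libraries (columns), with colours saturating at 2 in size. FS_DSS replicate 4 is the darkest blue column in many of the P450, carboxylesterase, UDP-glucuronosyltransferase and sulfotransferase rows, *Cyp2b10* and *Sult4a1* excepted, and the FS_CTR columns split into replicates 1 and 2 and replicates 3 and 4 in opposite directions for different genes.

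In 21 of the 79 members (26.6%) FS_CTR replicates 3 and 4 were both above the other 6 libraries, against 22.5% of all genes tested, and in 2 members (2.53%), *Cyp4x1* and *Sult1a1*, both were below them, against 21.0% of all genes. The values of *Sult2b1*, *Cyp2d34* and *Mgst2*, and in part *Cbr1*, thus came from high levels in these libraries, whereas those of *Gstm1*, *Gstm3*, *Gsta3* and *Gstm7* came from high levels in FS_CTR replicates 1 and 2. *Gstz1* and *Gstt3* had FS_CTR values close together in all 4 libraries.

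**Figure D5:**
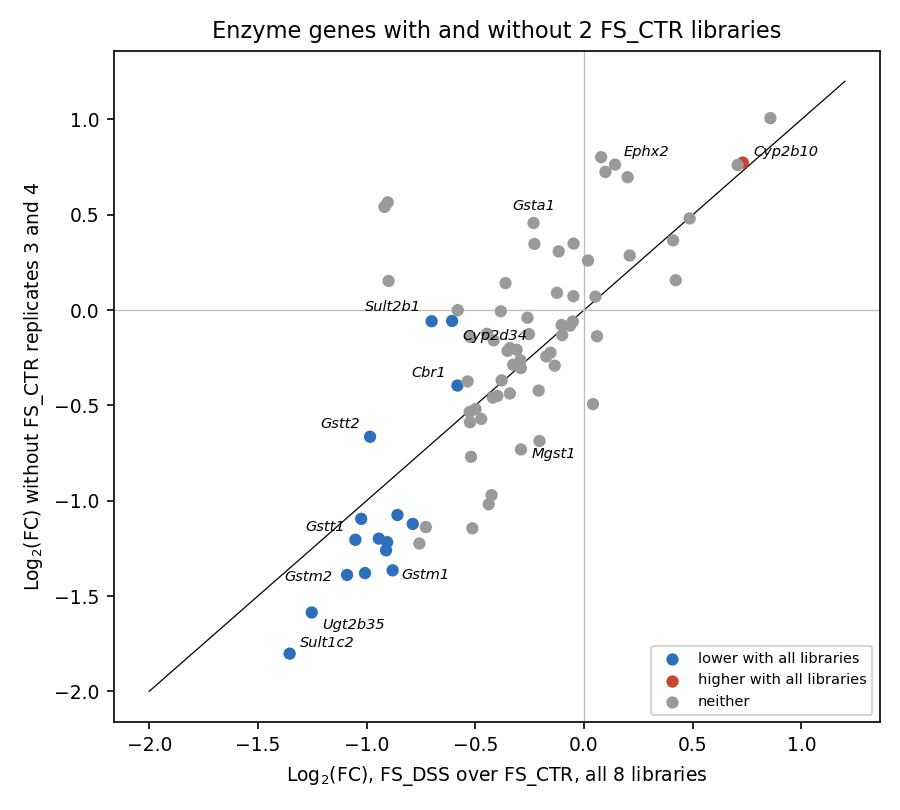
Log2(FC), FS_DSS over FS_CTR, of each enzyme gene with all 8 libraries (x axis) and without FS_CTR replicates 3 and 4 (y axis), with the line of equal values. *Sult2b1* and *Cyp2d34* lie near 0 on the y axis, 5 of the 7 mu class genes lie below the line, and *Gstm4*, *Gstm5* and *Ephx2* lie above it.

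Genes that work beside these enzymes were taken from lists of sensors, electron donors, other enzymes, cofactor supply and transporters. Of 12 measured sensors and partners, 4 had an unadjusted *p* under 0.05 as lower and 1 as higher, where 13.4% of all genes were lower and 10.6% higher at that level. *Nr1i2*, which encodes the pregnane X receptor, had 50.6, 48.8, 40.4 and 38.2 CPM with FS_DSS, against 53.2, 56.2, 66.0 and 65.0 CPM with FS_CTR (-0.43 ± 0.12, adjusted *p* = 0.0993). *Nr1i3*, the constitutive androstane receptor, was at 3.02, 2.36, 1.85 and 1.07 CPM, against 2.44, 3.81, 5.10 and 4.49 CPM (-0.92 ± 0.35, adjusted *p* = 0.162). *Keap1* (-0.27) and *Rxrb* (-0.26) were the other lower genes and *Arnt* (0.32) the higher one, while *Ahr* (0.29) and *Nfe2l2* (0.22) had *p* values above 0.05. Without FS_CTR replicates 3 and 4, *Nr1i2* was at -0.30, *Nr1i3* at -0.59, *Keap1* at -0.22, *Rxrb* at -0.14 and *Arnt* at 0.13.

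Of 9 electron donors and heme genes, *Por* was higher at an unadjusted *p* under 0.05 (0.29 ± 0.10, adjusted *p* = 0.133). It encodes the reductase that feeds electrons to microsomal P450 enzymes. *Cyb5a* (-0.42) and *Cyb5r3* (-0.58) were lower at that level. Without FS_CTR replicates 3 and 4, *Por* was at 0.38, *Cyb5a* at -0.23 and *Cyb5r3* at 0.01. Of 27 other phase I enzymes, 6 were lower and 0 higher at that level, among them the aldehyde reductase *Akr7a5* (-0.46), *Aldh1a7* (-0.48), *Maob* (-1.07) and the quinone reductase *Nqo1* (-0.43), and the list median was -0.21, against 13.4% lower and 10.6% higher and a median of -0.02 over all genes. Of 7 other phase II genes 3 were lower, *Ggt1* (-1.47), which cleaves glutathione conjugates, *Tst* (-0.49) and *Tpmt* (-0.31). Of 12 cofactor genes, *Gclm*, the modifier subunit of the enzyme that starts glutathione synthesis, and *Papss1*, which makes the sulfate donor, were lower (-0.26 each), and the cystine transporter *Slc7a11* was higher (0.56).

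Transporters were mixed, with an unadjusted *p* under 0.05 for 4 of 17 as higher and 2 as lower, against 10.6% and 13.4% of all genes. The conjugate efflux pump gene *Abcc1* had 163, 147, 175 and 203 CPM with FS_DSS, against 134, 115, 103 and 93.8 CPM with FS_CTR (0.62 ± 0.14, adjusted *p* = 0.08). *Abcc4* (0.61) and *Abcc3* (0.27) also had all FS_DSS samples above all FS_CTR samples, and *Slco3a1* was higher with overlap (1.13). Without FS_CTR replicates 3 and 4, *Abcc1* was at 0.46, *Abcc4* at 0.26, *Abcc3* at 0.20 and *Slco3a1* at 1.29. *Slco2b1*, an uptake carrier, was at 1.17, 1.15, 0.617 and 0.258 CPM, against 1.39, 2.07, 3.13 and 3.38 CPM (-1.62 ± 0.49), and *Slco4a1* was lower too (-0.52).

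Markers of the cell types an organoid can hold were read beside these genes. Of 10 markers of mature colonocytes, 8 were negative (median -0.51), and their summed level was 3645 to 4338 CPM with FS_DSS and 3240 to 4918 CPM with FS_CTR. The chloride exchanger gene *Slc26a3* had 94.7, 84.8, 42.6 and 30.0 CPM with FS_DSS, against 100, 112, 120 and 117 CPM with FS_CTR (-0.83 ± 0.33), lowest in FS_DSS replicates 3 and 4 as were *Cyp2c55* and *Ces2e*. *Guca2b* had a Log2(FC) of -0.99, while the 2 positive markers, *Emp1* and *Krt20*, had 0.29 and 0.09. Without FS_CTR replicates 3 and 4, *Guca2a* (-0.45) and *Ceacam20* (-0.36) were at 0.20 and 0.16, and *Slc26a3* and *Guca2b* at -0.75 and -0.999. All 6 colon identity genes were negative (median -0.44), with a summed level of 2742 to 5045 CPM, against 3831 to 6101 CPM, while 6 general epithelial markers had a median of 0.07 and summed to 15652 to 17829 CPM, against 13904 to 17593 CPM. Stem cell markers, 4 measured with 3 lower at both thresholds, had a median of -1.18 and summed to 22.2 to 70.1 CPM with FS_DSS, against 63.5 to 167 CPM with FS_CTR. Of all genes, 6.44% were lower at both thresholds. Small intestine and Paneth markers, 6 measured with 4 lower, had a median of -2.67 and summed to 37.4 to 104 CPM, against 41.5 to 371 CPM, tuft markers, 5 measured, had a median of -0.78 (14.0 to 17.4 CPM, against 16.4 to 22.4 CPM), goblet markers of 0.06 (1024 to 1942 CPM, against 729 to 1688 CPM) and enteroendocrine markers of 0.50 (112 to 240 CPM, against 66.0 to 189 CPM). The enteroendocrine sums were 166 and 189 CPM in FS_CTR replicates 1 and 2, against 66.4 and 66.0 CPM in replicates 3 and 4. Without replicates 3 and 4, the 7 enteroendocrine genes ran from -0.85 (*Pax4*) to 0.35 (*Pyy*), with *Chga* at 0.05 and *Gcg* at -0.19. Goblet genes then ran from -1.13 (*Agr2*) to 0.69 (*Clca1*), with *Muc2* at -0.73. The part of these cell types in the enzyme values was not tested. Marker sums of fibroblasts, immune cells and endothelium stayed at or below 1.74 CPM in every library, and that of hepatocytes at 0.968 to 2.24 CPM with FS_DSS and 1.56 to 6.31 CPM with FS_CTR, with *Fga* at 0 in all libraries.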

How the data were processed

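RNA from organoid pellets was sequenced in stranded libraries. The authors quantified reads with Salmon 1.10.1 on GRCm39 and deposited estimated counts, 1 row per symbol, as whole numbers. Per the submitters' processing notes DESeq2 1.36.0 was also used, a step the deposited estimated counts do not include. Salmon divides reads among similar transcripts, so counts of close paralogs are uncertain. Groups came from the sample titles, and no column was left unmapped.

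FS_DSS was compared with FS_CTR in R 4.3.3 with edgeR 4.0.16 (robust quasi-likelihood F test; no term but condition). TMM scaling was used, and filterByExpr kept 12729 of 29234 genes. Adjustment (Benjamini-Hochberg) ran over all genes kept, and the fit was tested on simulated data. The SE is approximate (absolute Log2(FC) over the root of F). CPM are TMM-scaled. DESeq2 1.42.0 and limma 3.58.1, other scalings and filters, and leaving out libraries were alternatives. Replicate numbers are shared between groups. The deviations of same-numbered samples had correlations of 0.352, 0.221, 0.154 and 0.226, each over 0.1, so a fit with the replicate block was added. Pairs of unlike number reached 0.188, above the 0.154 of replicate 3, so the pairing by number is uncertain. Positions, canonical transcript lengths and promoter windows came from the GENCODE annotation and sequence of GRCm39, in which all 163 symbols matched.

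Members and lists were chosen with earlier results of these data known. Genes were named if they passed both thresholds, were among the 3 with the highest mean CPM of their family, had one of the 3 smallest *p* values per family and direction, or passed an adjusted *p* of 0.05 with the block. In the other lists, genes with an unadjusted *p* under 0.05 were named, up to 4 per direction. *Gstt3*, *Gsta1*, *Gstp2*, *Gstm4*, *Gstm5*, *Cyp4x1*, *Sult1a1*, the genes named without counts, *Ahr*, *Nfe2l2* and the marker genes were named after their values were seen.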

Additional observations from a re-analysis of the deposited data

Results flagged for a closer look

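In *Gsta3*, FS_DSS replicate 3 stood far above the other FS_DSS samples, at 24.4 CPM against 10.1, 10.6 and 12.0 CPM, a gap of 0.868 of the whole range of the group, above the limit of Dixon's test for 4 samples. It was 1 of 112 groups examined, and chance alone marks about 1 in 20 groups.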

How the results depend on the processing

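The 16 members that were lower at both thresholds kept a negative Log2(FC) under every alternative run. The number of lower members was 0 with library totals as the scaling or at an adjusted *p* under 0.05 by edgeR. When 1 library was left out it was 7 to 16, lowest without FS_DSS replicate 4. Of the original 16, 7 to 13 stayed lower at both thresholds in those runs. The number of higher members, 1, was 3 with library totals, 2 with no filter, 2 with the replicate block, 2 without FS_CTR replicates 3 and 4, 2 without a fold threshold, 0 at an adjusted *p* under 0.05 and 0 to 1 with 1 library left out. With library totals, where all genes had a median of 0.31, the medians were -0.017 for all members, 0.14 for P450 genes, 0.034 for carboxylesterases, -0.14 for carbonyl reductases, 0.61 for epoxide hydrolases, -0.22 for UDP-glucuronosyltransferases, -0.18 for glutathione transferases, -0.088 for microsomal glutathione transferases and -0.23 for sulfotransferases. The epoxide hydrolase median was also 0.34 with no filter and 0.48 without FS_CTR replicates 3 and 4, and the sulfotransferase median was -0.059 without those libraries; the causes were not tested. Leaving out 1 library gave medians from -0.43 to -0.26 for all members, -0.25 to -0.076 for P450 genes, -0.37 to -0.12 for carboxylesterases, -0.63 to -0.40 for carbonyl reductases, -0.026 to 0.34 for epoxide hydrolases, -0.68 to -0.28 for UDP-glucuronosyltransferases, -0.63 to -0.47 for glutathione transferases, -0.44 to -0.27 for microsomal glutathione transferases and -0.58 to -0.31 for sulfotransferases. With the replicate block 15 members were lower at both thresholds and 12 of these were among the 16. Genes near 1 CPM, such as *Gstm7*, rest on few counts, 10 to 64 per library.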
